A study of Homo sapiens with 12 samples.

Results

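The genes described here are 10 components of the Notch pathway, taken by symbol from a gene count table of the human myeloid leukemia line HL-60/S4: the receptors *NOTCH1* and *NOTCH2*, the ligands *JAG1*, *JAG2* and *DLL1*, the nuclear partners *RBPJ* and *MAML2*, and the target genes *HES1*, *HES4* and *HEY1*. All 10 symbols matched a row among the 58288 genes of the table. The 12 libraries of ribosome-depleted total RNA fell into 4 groups of n = 3, each library from its own flask of one cell line. HL-60/S4 cells grow as promyelocytes, and all-trans retinoic acid (ATRA, 1 µM for 4 days) turned them into granulocytes. Promyelocytes without ATRA and granulocytes with it each received 16 ng/mL TNF-α, or the same volume of water as vehicle, for 2 hr, and every group was kept in calcium-supplemented medium. The question is how the inflammatory cytokine TNF-α changed Notch pathway RNA in each cell type, and whether the responses differed.

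Notch is a contact-dependent signal between neighboring cells. A Jagged or Delta-like ligand on one cell engages a Notch receptor on the next, ADAM metalloproteases and then γ-secretase cut the receptor, and the freed intracellular domain enters the nucleus. There it joins the DNA-binding protein RBPJ and a Mastermind-like coactivator such as MAML2, and RBPJ changes from a repressor to an activator of genes such as the HES and HEY transcriptional repressors. In blood, Notch is best known for directing progenitors to the T cell fate, and its role in myeloid cells depends on context.

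The libraries held between 22829189 and 31895061 counted read pairs. Levels are counts per 1e6 read pairs (CPM) after trimmed-mean scaling of library sizes, and *TNFAIP3*, an NF-κB target gene used to check the treatment, rose from 35.5 to 438 CPM in promyelocytes and from 28.0 to 917 CPM in granulocytes. *NFKBIA*, another such target, rose from 23.3 to 350 CPM and from 13.3 to 585 CPM. The 8 promyelocyte markers summed to 8050 to 8618 CPM in vehicle promyelocytes and 2454 to 2715 CPM in vehicle granulocytes, and the 8 granulocyte markers to 156 to 165 CPM and 4942 to 5311 CPM, so the sums, carried mostly by *MPO* and *PRTN3* in the first list, matched both labels. Not every marker did: the granule protease gene *ELANE* averaged only 1.79 CPM in vehicle promyelocytes, and *KIT* (4.21 and 26.0 CPM) and *CD33* (127 and 171 CPM) were lower in vehicle promyelocytes than in vehicle granulocytes. Of 5 monocyte or macrophage markers, *MARCO* was at 0 in all libraries and *CD14* averaged at most 0.300 CPM in any group. The summed level of these 5 was 49.7 to 51.5 CPM in vehicle granulocytes and 29.1 to 32.8 CPM after TNF-α, nearly all of it *CSF1R*. The 6 T or B lymphocyte markers summed to between 5.61 and 15.6 CPM in every library with *MS4A1* at 0, and the erythroid, endothelial and fibroblast lists to at most 1.33 CPM, and the part of these levels in the results below was not tested. Promyelocytes and granulocytes were run as separate experiments, so cell type and experiment cannot be told apart in any level set between them or in any difference between their responses. The study also suspended promyelocytes at a higher cell density than granulocytes, and density cannot be told apart from cell type either.

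*MAML2* was nearly undetected with vehicle and far higher after TNF-α in both cell types, *NOTCH2* rose modestly in both, and the target genes *HES1*, *HES4* and *HEY1* had at most 29 counts in any library. In promyelocytes, the edgeR quasi-likelihood test called 2 of the 7 tested genes higher after TNF-α (*NOTCH2* and *MAML2*) and 1 lower (*JAG1*), where 14.8% of all 16250 genes tested were called, 8.15% higher and 6.65% lower. In granulocytes, 5 of 7 were called higher (*NOTCH1*, *NOTCH2*, *JAG1*, *JAG2* and *MAML2*) and 1 lower (*RBPJ*), against 49.2% of all 16944 genes tested, 24.4% higher and 24.8% lower. The responses of 3 of the 7 differed between the cell types in a test of the interaction, 2 of them more positive in granulocytes (*NOTCH1* and *JAG1*) and 1 more negative (*RBPJ*), beside 24.0% of 18124 genes, 14.1% more positive and 9.88% more negative. *DLL1*, *HES4* and *HEY1* had too few counts for the filter and are given as counts. *MAML2* passed that filter in each cell type only with its TNF-α libraries. Such a selection favors a difference but does not set its size. The *MAML2* calls and the shares of genes called are therefore a description. Without TNF-α promyelocyte library 3 the genes called lower in promyelocytes were 2, and without TNF-α granulocyte library 1 those called higher in granulocytes were 3. In bulk RNA of this kind, a lower level from fewer cells of a type and from less RNA per cell cannot be told apart.

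**Figure D1:**
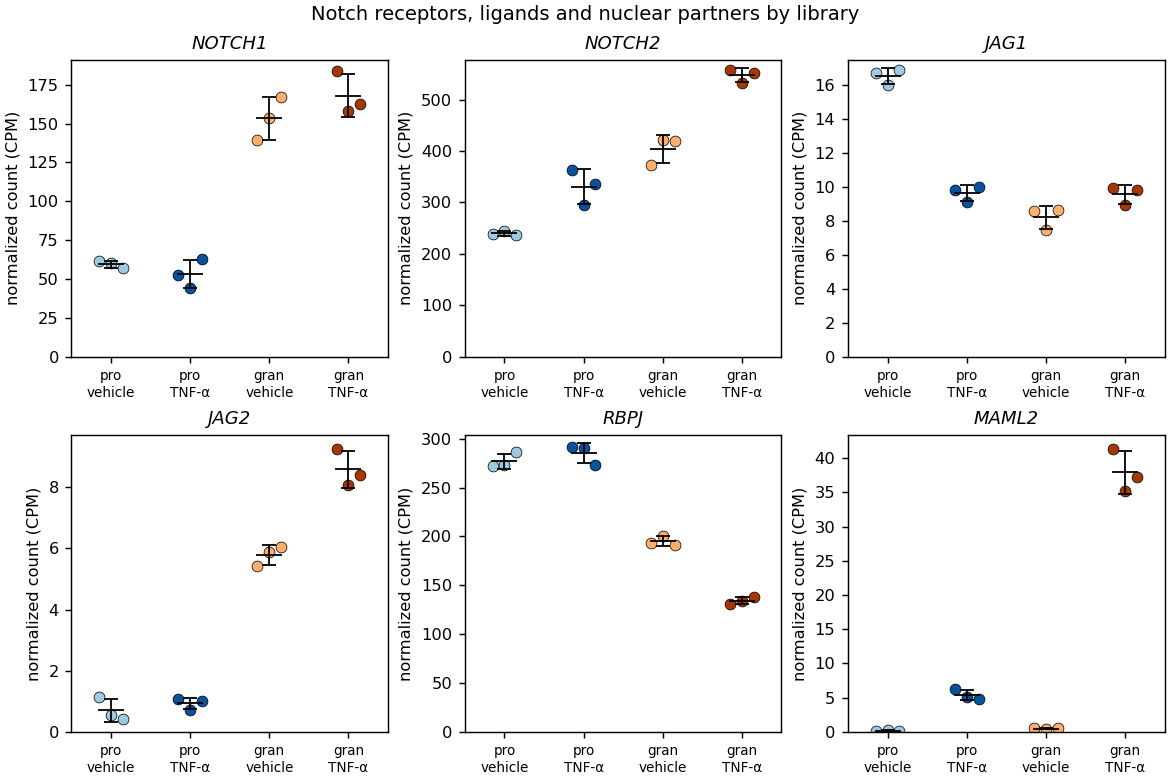
Normalized counts (CPM, linear axes from 0) of 6 Notch pathway genes in each library; points are libraries, horizontal lines the mean and bars the standard deviation (n = 3), with promyelocytes (pro) in blue and granulocytes (gran) in orange. *MAML2* was at 0.138 and 0.463 CPM with vehicle and at 5.39 and 37.9 CPM after TNF-α, and *RBPJ* did not overlap between treatments in granulocytes but did in promyelocytes.

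*NOTCH2* encodes the more abundant of the 2 receptors in these cells (ENSG00000134250.19, chr1:119911553-120069626 on the minus strand of hg38, 38 merged exon blocks). In promyelocytes its level was 238, 245 and 236 CPM in the 3 vehicle libraries and 362, 295 and 336 CPM in the 3 TNF-α libraries. In granulocytes it was 372, 421 and 420 CPM with vehicle and 558, 532 and 552 CPM with TNF-α. Every TNF-α library was above every vehicle library of the same cell type. The log2 fold change was 0.47 ± 0.0670 (SE) in promyelocytes (adjusted p = 3.71e-05, edgeR) and 0.49 ± 0.0515 in granulocytes (adjusted p = 4.00e-10, edgeR). The difference between the 2 responses was 0.057, with a 95% interval of -0.12 to 0.23 and an edgeR adjusted p of 0.701 for the interaction. Without TNF-α promyelocyte library 2 or vehicle granulocyte library 1 this difference was -0.020 or -0.011.

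Part of the *NOTCH2* count is uncertain, because *NOTCH2NLA* is a partial copy of the *NOTCH2* gene with near-identical sequence and the counting kept 1 primary alignment of each read pair, so reads of one locus could be placed at the other. *NOTCH2NLA* had 348 to 429 counts in vehicle promyelocytes and 1082 to 1196 after TNF-α, and 576 to 800 and 1056 to 1514 in granulocytes. Its log2 fold change was 1.63 ± 0.100 in promyelocytes (edgeR adjusted p = 1.86e-10) and 1.13 ± 0.0768 in granulocytes (edgeR adjusted p = 2.88e-15). The counts of both loci were also summed, which was tried only after these values were seen. The sum had a log2 fold change of 0.56 in promyelocytes and 0.53 in granulocytes, both past the threshold. Since both loci rose on their own, the sum had to rise, and it cannot show how reads were split between them.

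The promoter of *NOTCH2* is shown because it is the only one of the 4 receptor and ligand windows found with a match to the NF-κB site that is bound downstream of TNF-α. It is the RefSeq window of 250 bases before to 50 bases after the start site (GRCh38.p14, chr1:120069613-120069912, minus strand), printed 5′ to 3′ with capitals marking the κB consensus match, GGGAAACCCC at -99 to -90 from the start, and 1 N-box match, CACGAG.
NOTCH2: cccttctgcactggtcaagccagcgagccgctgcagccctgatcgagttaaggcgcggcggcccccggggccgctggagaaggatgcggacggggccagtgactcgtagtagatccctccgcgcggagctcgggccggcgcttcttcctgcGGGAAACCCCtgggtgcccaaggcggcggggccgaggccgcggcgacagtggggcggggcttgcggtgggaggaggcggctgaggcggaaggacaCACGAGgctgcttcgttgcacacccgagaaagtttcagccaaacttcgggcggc
Both strands were searched for the core bound by RBPJ (TGGGAA), the N-box bound by HES proteins (CACNAG) and the κB consensus, given by name. Among all 35116 promoter windows of the same length, 24.0% held the RBPJ core, 38.0% the N-box and 5.91% the κB consensus, so a match by itself is a description and not a site. RefSeq windows were matched for 8 of the 10 genes. The windows of *JAG1* and *JAG2* held none of the 3 motifs, and that of *NOTCH1* held only 2 overlapping N-box matches.

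*NOTCH1* (ENSG00000148400.9, chr9:136494444-136545862, minus strand) had levels of 61.3, 60.1 and 56.7 CPM in vehicle promyelocytes and 52.4, 44.4 and 62.8 CPM after TNF-α. In vehicle granulocytes it was at 139, 154 and 167 CPM, and after TNF-α at 184, 158 and 163 CPM. The libraries overlapped between treatments in both cell types. The log2 fold change in promyelocytes was -0.16 ± 0.0882 (edgeR adjusted p = 0.279), with a 95% interval of -0.33 to 0.018. Without TNF-α promyelocyte library 3, which was the highest of its group, it was -0.29 with an edgeR adjusted p of 0.0179. In granulocytes the log2 fold change was 0.18 ± 0.0568 (edgeR adjusted p = 0.00844). The interaction was 0.37 ± 0.120 (edgeR adjusted p = 0.0237). These calls were fragile: without vehicle library 1 or TNF-α library 1 the granulocyte adjusted p was 0.119 or 0.0725 (edgeR), and with trends in GC content and length removed the granulocyte value was -0.0047 and the interaction 0.052 (edgeR adjusted p = 0.728). The interaction passed the threshold in 10 of the 18 alternatives run, and besides the GC content and length setting it missed it by DESeq2 (adjusted p = 0.0745), with the DESeq2 size factors in edgeR (adjusted p = 0.0507), and without vehicle promyelocyte library 1 or 2, TNF-α promyelocyte library 2, vehicle granulocyte library 1 or TNF-α granulocyte library 1 (edgeR adjusted p from 0.0526 to 0.0945). The merged exons of *NOTCH1* have a GC content of 63.2%. The part of GC content in the *NOTCH1* values was not tested.

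As a share of the summed receptor level per kilobase of exon, *NOTCH1* made up 29.6% ± 0.762 (SD, n = 3) of *NOTCH1* and *NOTCH2* in vehicle promyelocytes and 21.4% ± 2.37 after TNF-α. In granulocytes the share was 39.2% ± 1.08 with vehicle and 34.3% ± 1.44 after TNF-α. The 3 TNF-α libraries lay below the 3 vehicle libraries in both cell types, and the two-sided exact permutation p was 0.1 in each, the smallest that 3 against 3 allows.

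*JAG1* (ENSG00000101384.11, chr20:10637684-10674107, minus strand) encodes a Jagged ligand that is a known NF-κB-responsive gene in other cells. In promyelocytes it was at 16.7, 16.0 and 16.9 CPM with vehicle and at 9.81, 9.12 and 10.0 CPM after TNF-α. In granulocytes it was at 8.59, 7.45 and 8.62 CPM with vehicle and at 9.97, 8.92 and 9.81 CPM after TNF-α. On these scaled levels the treatments did not overlap in either cell type, and the difference had opposite directions. On raw library totals the granulocyte libraries overlapped, with TNF-α library 2 at 8.77 CPM and vehicle libraries 1 and 3 at 9.03 and 8.78 CPM, while the promyelocyte libraries did not. TNF-α changed it by a log2 fold change of -0.77 ± 0.0924 in promyelocytes (edgeR adjusted p = 3.69e-06) and 0.27 ± 0.107 in granulocytes (edgeR adjusted p = 0.0369). The interaction was 1.08 ± 0.134 (edgeR adjusted p = 7.55e-07), and it passed the threshold in each of the 18 alternatives run, with values from 0.96 to 1.13.

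The decrease of *JAG1* in promyelocytes held in all 13 alternatives, between -0.80 and -0.73, whereas the increase in granulocytes held in 7. It was no longer past the threshold by DESeq2 (adjusted p = 0.126), by edgeR with no filter or with GC content and length trends removed (adjusted p = 0.0627 and 0.0692), or by edgeR without vehicle library 2, TNF-α library 1 or TNF-α library 3 (adjusted p = 0.173, 0.0916 and 0.0781), and its adjusted p ranged from 0.0235 to 0.173 over the 13. After TNF-α the mean *JAG1* level was 9.65 CPM in promyelocytes and 9.57 CPM in granulocytes, from 16.5 and 8.22 CPM with vehicle. An antisense gene (ENSG00000270792.5) overlaps 79 bases of *JAG1* exon, and it had 2 to 23 counts summed over the libraries of any group in a count that used strand.

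*JAG2* encodes the other Jagged ligand (ENSG00000184916.8, chr14:105140981-105168824, minus strand). It had 35, 15 and 12 counts in the vehicle promyelocyte libraries and 28, 20 and 31 after TNF-α, and these overlapped. In granulocytes it had 140, 175 and 177 counts with vehicle, or 5.42, 5.87 and 6.06 CPM, and 211, 233 and 192 counts after TNF-α, or 9.26, 8.09 and 8.41 CPM. All 3 TNF-α granulocyte libraries were above all 3 vehicle libraries. The change was 0.61 ± 0.116 on the log2 scale in granulocytes (edgeR adjusted p = 2.96e-05). In promyelocytes it was 0.39 ± 0.371 (edgeR adjusted p = 0.547), and its interval of -0.33 to 1.12 includes the granulocyte value. The interaction was 0.27 with an interval of -0.39 to 0.93 (edgeR adjusted p = 0.621), so no difference between the cell types was detectable at these counts. Without vehicle promyelocyte library 1, the highest of its group with 35 counts, it was -0.29. A gene on the same strand (ENSG00000257622.1) overlaps 469 bases of *JAG2* exon and had 0 counts in all groups.

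The 2 Jagged genes stood in different proportions in the 2 cell types. Per kilobase of exon, *JAG2* was 5.29% ± 2.63 (SD, n = 3) of the summed Jagged level in vehicle promyelocytes and 48.4% ± 2.78 in vehicle granulocytes. After TNF-α the shares were 11.3% ± 1.59 and 54.5% ± 1.03, above every vehicle library of the same cell type (two-sided exact permutation p = 0.1 in each, the smallest possible). The level of *JAG1* was higher with vehicle in promyelocytes and that of *JAG2* in granulocytes, with no overlap between libraries for either.

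*DLL1* encodes a Delta-like ligand (ENSG00000198719.8, chr6:170282206-170306565, minus strand) and was close to absent. It had 1, 4 and 2 counts in vehicle promyelocytes and 7, 12 and 4 after TNF-α, and 2, 2 and 4 counts in vehicle granulocytes and 2, 0 and 3 after TNF-α. One TNF-α promyelocyte library had the same count as the highest vehicle library. The ratio of TNF-α to vehicle, scaled to library size, was 3.35 in promyelocytes (95% interval 1.39 to 9.25, from 23 and 7 counts in all) and 0.713 in granulocytes (0.184 to 2.47), intervals that cover counting error only. Fitted without the filter, *DLL1* had an edgeR adjusted p of 0.228 in promyelocytes.

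**Figure D2:**
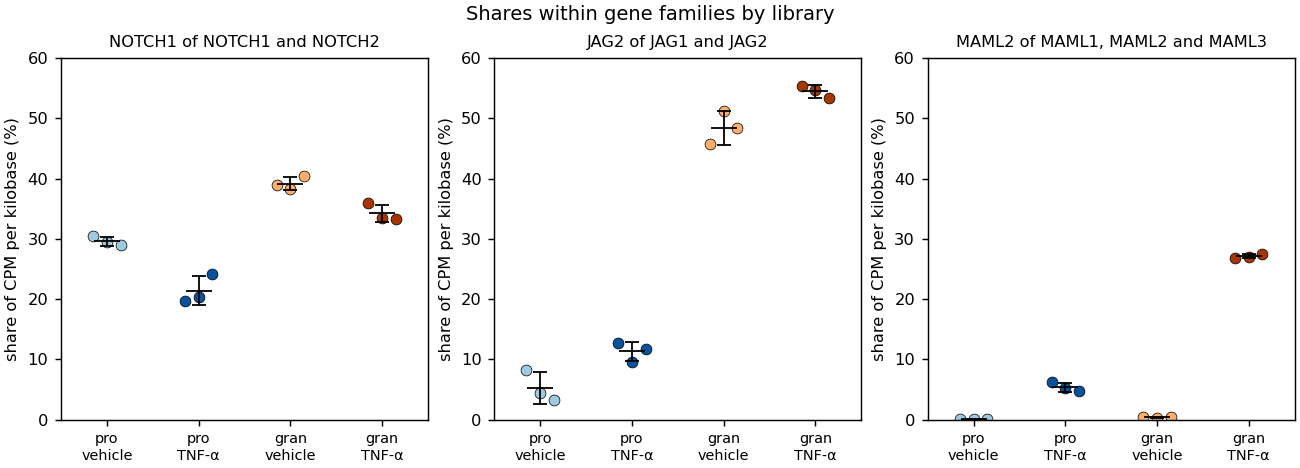
Share of each gene in its family's summed level per kilobase of exon (percent), by library; points are libraries, lines the mean and bars the standard deviation (n = 3). *JAG2* was 5.29% of the Jagged level in vehicle promyelocytes and 48.4% in vehicle granulocytes, and *MAML2* was 27.2% of the Mastermind-like level in granulocytes after TNF-α and 0.378% with vehicle.

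*RBPJ* encodes the DNA-binding protein on which the pathway converges (ENSG00000168214.20, chr4:26163455-26435131, plus strand). In promyelocytes it was at 272, 273 and 286 CPM with vehicle and at 292, 291 and 273 CPM after TNF-α, and the libraries overlapped. In granulocytes it was at 193, 201 and 192 CPM with vehicle and at 131, 134 and 138 CPM after TNF-α, with all 3 treated libraries below all 3 vehicle libraries. On the log2 scale the change was 0.046 ± 0.0562 in promyelocytes (edgeR adjusted p = 0.655, 95% interval -0.064 to 0.16) and -0.49 ± 0.0485 in granulocytes (edgeR adjusted p = 7.71e-11). The interaction was -0.50 ± 0.0705 (edgeR adjusted p = 5.91e-06) and passed the threshold in all 18 alternatives, from -0.58 to -0.43. One of the 5 RefSeq promoter windows of *RBPJ* (chr4:26319496-26319795) held the RBPJ core, with 2 matches.

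*MAML2* encodes a Mastermind-like coactivator that bridges the Notch intracellular domain to histone acetyltransferases (ENSG00000184384.13, chr11:95976598-96343180, minus strand). It had 5, 5 and 2 counts in the vehicle promyelocyte libraries and 164, 140 and 151 after TNF-α. In granulocytes it had 14, 10 and 15 counts with vehicle and 941, 1013 and 852 after TNF-α. The lowest treated library held 140 counts and the highest vehicle library of either cell type 15. Scaled to library size, the ratio of TNF-α to vehicle counts was 38.7 in promyelocytes (95% interval 21.9 to 75.4) and 82.1 in granulocytes (59.9 to 116), for counting error only.

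The fitted log2 fold change of *MAML2* was 5.24 ± 0.296 in promyelocytes and 6.40 ± 0.137 in granulocytes, given as a description with no test because the gene passed the filter through its TNF-α libraries alone. The interaction was 1.20 ± 0.532, likewise a description with no test for the same reason. It rests on 12 vehicle counts in promyelocytes, and no difference in fold between the cell types is claimed. The level reached was 5.39 ± 0.760 CPM (SD, n = 3) in promyelocytes and 37.9 ± 3.12 CPM in granulocytes.

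The *MAML2* promoter window is shown because this gene had the largest fold change of the 7 tested genes (GRCh38.p14, chr11:96343146-96343445, minus strand). Capitals mark 2 N-box matches, CACCAG at -105 to -100 and at -94 to -89, and it held neither the RBPJ core nor the κB consensus, which says only that these letters are not in this window.
MAML2: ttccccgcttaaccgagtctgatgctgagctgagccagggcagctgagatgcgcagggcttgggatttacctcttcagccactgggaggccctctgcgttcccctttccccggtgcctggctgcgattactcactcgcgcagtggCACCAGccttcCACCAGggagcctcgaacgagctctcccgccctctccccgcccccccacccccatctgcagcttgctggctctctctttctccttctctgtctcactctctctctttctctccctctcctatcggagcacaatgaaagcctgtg

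The Mastermind-like family has 3 genes, and neither of the other 2 was called higher. *MAML1* was at 64.1, 66.8 and 69.0 CPM in vehicle promyelocytes and 67.9, 64.0 and 69.4 CPM after TNF-α, which overlapped. *MAML3* was at 19.9, 19.3 and 17.99 CPM and then 13.5, 13.6 and 14.98 CPM, and its log2 fold change was -0.44 ± 0.0877 in promyelocytes (edgeR adjusted p = 0.00135). In granulocytes *MAML3* fell from 31.7, 32.9 and 33.7 CPM to 18.7, 16.6 and 15.6 CPM, a log2 fold change of -0.90 ± 0.0726 (edgeR adjusted p = 3.79e-13), and the interaction was -0.42 (edgeR adjusted p = 0.00735).

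Per kilobase of exon, *MAML2* was 0.140% ± 0.0617 (SD, n = 3) of the family's summed level in vehicle promyelocytes and 5.40% ± 0.749 after TNF-α. In granulocytes its share was 0.378% ± 0.104 with vehicle and 27.2% ± 0.330 after TNF-α, while that of *MAML3* was 26.9% ± 1.30 and 12.3% ± 0.638. *MAML1* remained the largest of the family in each group, from 80.3% ± 1.44 in vehicle promyelocytes to 60.5% ± 0.450 in TNF-α granulocytes. For each of these shares of *MAML2* and *MAML3* the treated and vehicle libraries did not overlap within a cell type (two-sided exact permutation p = 0.1, the smallest possible).

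**Figure D3:**
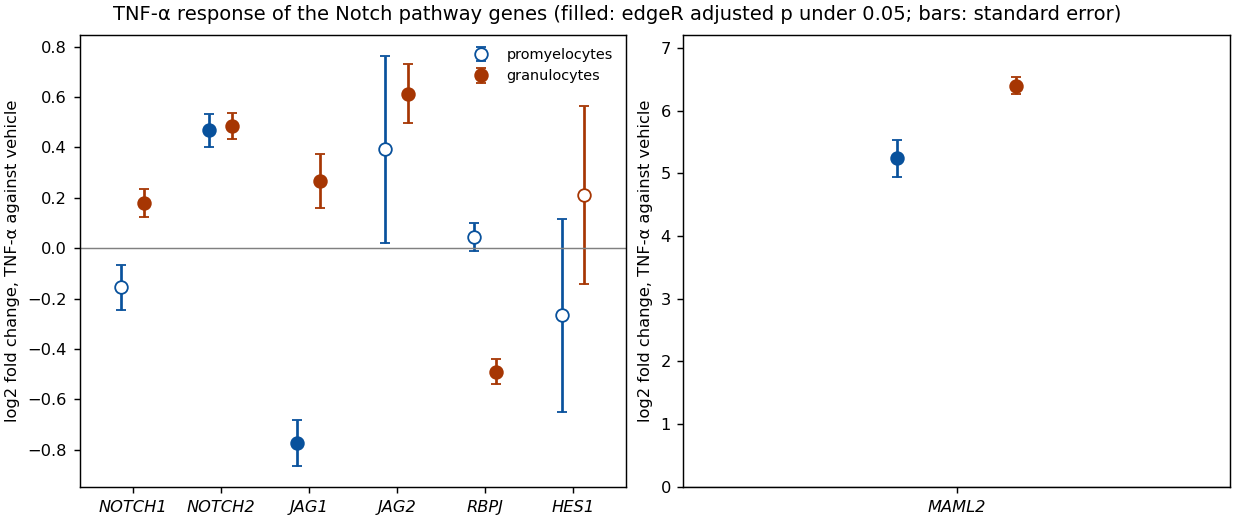
Log2 fold change of TNF-α against vehicle from the edgeR fit for the 7 tested genes, with promyelocytes in blue, granulocytes in brown, bars for the standard error and filled points for an adjusted p under 0.05; the right panel has its own axis for *MAML2*, whose filled points are a description since it passed the filter through its TNF-α libraries alone. *JAG1* was at -0.77 in promyelocytes and 0.27 in granulocytes, *RBPJ* at 0.046 and -0.49, and *NOTCH2* at 0.47 and 0.49.

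The target genes *HES1*, *HES4* and *HEY1* encode basic helix-loop-helix repressors, and their RNA is a common readout of Notch activity. The promoters of *HES1* and *HES4* are shown because each held a match to the RBPJ core, which as above is a description and not a site. Capitals mark the motif matches. The *HES1* window (GRCh38.p14, chr3:194135898-194136197, plus strand) held TGGGAA at -84 to -79 and at -70 to -65, together with 4 N-box matches and 1 κB match, and the *HES4* window (chr1:1000048-1000347, minus strand) held TGGGAA at -76 to -71.
HES1: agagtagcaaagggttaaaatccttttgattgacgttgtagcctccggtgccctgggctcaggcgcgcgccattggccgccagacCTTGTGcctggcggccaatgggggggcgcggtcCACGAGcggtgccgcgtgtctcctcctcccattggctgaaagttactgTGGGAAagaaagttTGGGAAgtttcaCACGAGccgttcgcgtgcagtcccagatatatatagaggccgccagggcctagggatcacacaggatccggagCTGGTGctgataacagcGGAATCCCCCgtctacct
HES4: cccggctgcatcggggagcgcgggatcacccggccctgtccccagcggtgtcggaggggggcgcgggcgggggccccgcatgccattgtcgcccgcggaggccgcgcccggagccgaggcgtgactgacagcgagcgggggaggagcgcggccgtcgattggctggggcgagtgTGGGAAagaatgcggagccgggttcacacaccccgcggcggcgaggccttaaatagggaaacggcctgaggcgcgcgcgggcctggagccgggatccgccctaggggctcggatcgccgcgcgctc

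*HES1* (ENSG00000114315.3, chr3:194136145-194138732) had 18, 25 and 25 counts in vehicle promyelocytes and 18, 9 and 29 after TNF-α. It had 19, 18 and 27 counts in vehicle granulocytes and 25, 15 and 22 after TNF-α. The libraries of all 4 groups overlapped. The log2 fold change was -0.27 ± 0.384 in promyelocytes (edgeR adjusted p = 0.708, 95% interval -1.02 to 0.49) and 0.21 ± 0.352 in granulocytes (edgeR adjusted p = 0.649, interval -0.48 to 0.90). A change within these bounds was not detectable at this depth, and without TNF-α promyelocyte library 2, the lowest, the promyelocyte value was 0.051.

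*HES4* (ENSG00000188290.10, chr1:998962-1000172) had 1 count in TNF-α promyelocyte library 3 and 0 in the other 11 libraries. A count of 0 allows up to 3 counts, which is between 0.0963 and 0.132 CPM in these libraries. *HEY1* (ENSG00000164683.16, chromosome 8) had 1, 1 and 0 counts with vehicle and 1, 1 and 0 with TNF-α in promyelocytes, and 0, 1 and 0 counts with vehicle and 2, 4 and 14 with TNF-α in granulocytes. All 3 treated granulocyte libraries were above the vehicle libraries, but 14 of the 20 counts came from library 3. The ratio was 22.8 with a 95% counting interval of 3.65 to 946, resting on 1 vehicle count, and in a fit without the filter *HEY1* had an edgeR adjusted p of 0.00290 in granulocytes.

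**Figure D4:**
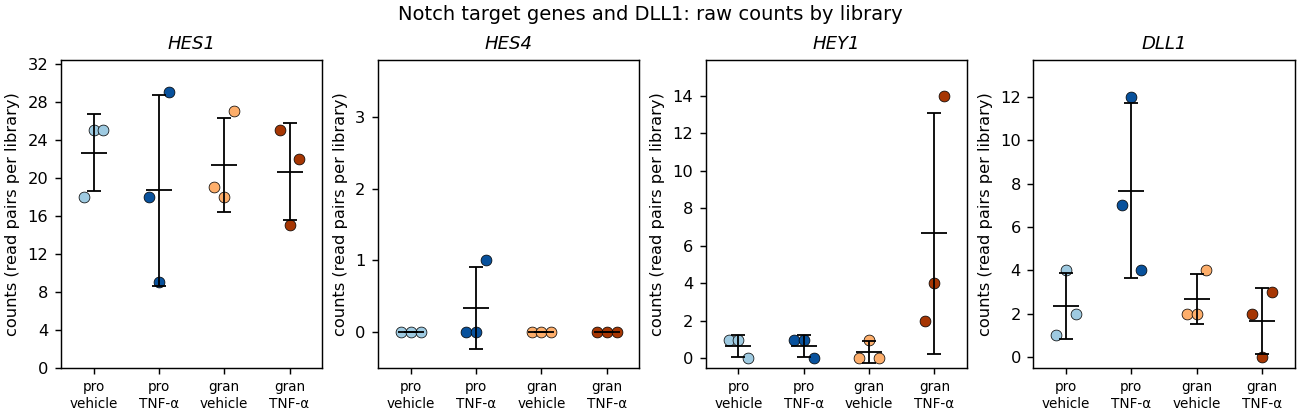
Raw counts per library of *HES1*, *HES4*, *HEY1* and *DLL1* (each panel has its own linear axis); points are libraries, lines the mean and bars the standard deviation (n = 3). *HES1* lay between 9 and 29 counts in all 12 libraries, *HES4* at 0 or 1, and *HEY1* reached 14 counts in 1 TNF-α granulocyte library.

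With vehicle, granulocyte and promyelocyte libraries did not overlap for 6 of the 7 genes that passed the filter over all 12 libraries, and this was so for 74.3% of the 18124 genes tested together, 37.8% higher and 36.5% lower in granulocytes. *NOTCH1* was 2.58-fold, *NOTCH2* 1.69-fold, *JAG2* 8.26-fold and *MAML2* 3.35-fold higher in vehicle granulocytes, the last from 12 and 39 counts in all. *JAG1* was 2.01-fold and *RBPJ* 1.42-fold higher in vehicle promyelocytes, and *HES1* overlapped. These levels are given with no test.

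Levels can be ordered between genes per kilobase of exon. In vehicle promyelocytes the mean CPM per kilobase was 29.9 for *RBPJ*, 14.3 for *NOTCH2*, 6.01 for *NOTCH1*, 1.94 for *JAG1*, 0.384 for *HES1* and 0.109 for *JAG2*, each apart from its neighbor in all libraries, followed by *DLL1*, *MAML2* and *HEY1*, whose neighbors overlapped. In granulocytes after TNF-α the order was *NOTCH2* at 32.6, *NOTCH1* at 17.01, *RBPJ* at 14.5, *MAML2* at 5.34, *JAG2* at 1.34, *JAG1* at 1.12 and *HES1* at 0.417 CPM per kilobase, each again apart from the next. *RBPJ* was above both receptors in vehicle promyelocytes and below both in treated granulocytes, and *MAML2* was near *DLL1* in the former and above both Jagged genes in the latter. In vehicle granulocytes *JAG1* at 0.963 and *JAG2* at 0.904 CPM per kilobase overlapped.

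By the root mean square difference between the 4 group means of log2 CPM, each centered on its own mean, the genes most like *JAG1* among 11800 were *MEX3B*, an RNA-binding protein gene (0.0541), and *TMEM160* (0.116). *HES1* and *HES4* were too low for this measure. The 2 genes most like *MAML2*, a comparison chosen after its values were seen, were the chemokine gene *CCL3* (0.284) and the cytokine gene *IL1A* (0.374). *CCL3* had group means of 0.458, 10.6, 1.10 and 126 CPM in vehicle and TNF-α promyelocytes and vehicle and TNF-α granulocytes. *MAML2* reached the level needed for this measure only through its TNF-α libraries. Genes most like it are therefore bound to be low with vehicle and high after TNF-α, and the likeness is a description.

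The rest of the pathway was described by a list of 57 genes, all of which were in the table: the remaining receptors and ligands, glycosyltransferases, proteases, nuclear cofactors, targets and modulators. In promyelocytes 40 were tested, of which 4 were called higher and 4 lower (20% called, beside 14.8% of all genes), with a median log2 fold change of -0.028 beside -0.0094 for all genes. Without TNF-α promyelocyte library 2, 2 were called lower. In granulocytes 41 were tested, of which 17 were called higher and 7 lower (58.5%, beside 49.2%), with a median of 0.12 beside -0.0047. Among the 17 is the Notch target gene *NRARP*, which passed the filter there only with its TNF-α libraries, so this share is a description. Of the 39 tested in both cell types, 4 were higher in both, 3 were lower in both and 1, *NUMBL*, an adaptor related to the Notch antagonist NUMB, was called in opposite directions. The matching shares over all genes were not worked out, so these counts are a description and do not show that the list is unusual.

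Glycosyltransferases modify the extracellular repeats of Notch and set which ligands it answers to. All 5 were tested, and 1 was called higher in promyelocytes, while 4 were called higher and 1 lower in granulocytes, beside 14.8% and 49.2% of all genes. *LFNG*, which extends the O-fucose on Notch, was at 9.59, 8.76 and 9.94 CPM in vehicle promyelocytes and 19.8, 20.2 and 22.4 CPM after TNF-α, a log2 fold change of 1.14 ± 0.0931 (edgeR adjusted p = 1.51e-08). In granulocytes its log2 fold change was 0.90 ± 0.0865 (edgeR adjusted p = 3.73e-11). *POFUT1*, which adds the O-fucose itself, was at 41.9, 42.6 and 47.8 CPM in vehicle granulocytes and 99.5, 93.4 and 90.2 CPM after TNF-α, with no overlap. Its log2 fold change was 1.15 ± 0.0569 in granulocytes (edgeR adjusted p = 2.57e-19) and 0.085 ± 0.0571 in promyelocytes (edgeR adjusted p = 0.371). The interaction was 1.10 ± 0.0819 (edgeR adjusted p = 8.85e-11).

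Among the 9 genes of the proteases that cut the receptor, 2 were called higher in promyelocytes, and 3 higher and 2 lower in granulocytes. This was 22.2% and 55.6% called, beside 14.8% and 49.2% of all genes. The 2 called lower were the sheddase gene *ADAM10* and the γ-secretase gene *NCSTN*. Their log2 fold changes were -0.11 (edgeR adjusted p = 0.0465) and -0.16 (edgeR adjusted p = 0.00828). *ADAM17*, a sheddase that also frees TNF-α from the membrane, was at 94.0, 95.7 and 92.4 CPM in vehicle granulocytes and 229, 238 and 245 CPM after TNF-α. Its log2 fold change was 1.39 ± 0.0496 in granulocytes (edgeR adjusted p = 8.97e-24) and 0.34 ± 0.0611 in promyelocytes (edgeR adjusted p = 0.000498), and the interaction was 1.08 ± 0.0751 (edgeR adjusted p = 2.22e-11).

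Of 15 tested cofactors, 2 were called lower in promyelocytes, and 4 were called higher and 3 lower in granulocytes by edgeR, or 13.3% and 46.7% called beside 14.8% and 49.2% of all genes. *TLE3*, a Groucho-family corepressor, was at 112, 110 and 106 CPM in vehicle promyelocytes and 66.8, 60.6 and 66.4 CPM after TNF-α. The log2 fold change was -0.76 ± 0.0611 in promyelocytes (edgeR adjusted p = 1.29e-08) and -0.23 ± 0.0473 in granulocytes (edgeR adjusted p = 8.80e-05), and the interaction was 0.56 ± 0.0752 (edgeR adjusted p = 2.32e-06). *HES6*, a HES family member, was at 10.7, 9.39 and 11.2 CPM in vehicle granulocytes and 4.43, 6.32 and 4.73 CPM after TNF-α. This was a log2 fold change of -0.95 ± 0.125 (edgeR adjusted p = 4.87e-08). In promyelocytes it was -0.33 (edgeR adjusted p = 0.00891), and without vehicle library 1 or TNF-α library 2 the adjusted p was 0.0677 or 0.0505.

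**Figure D5:**
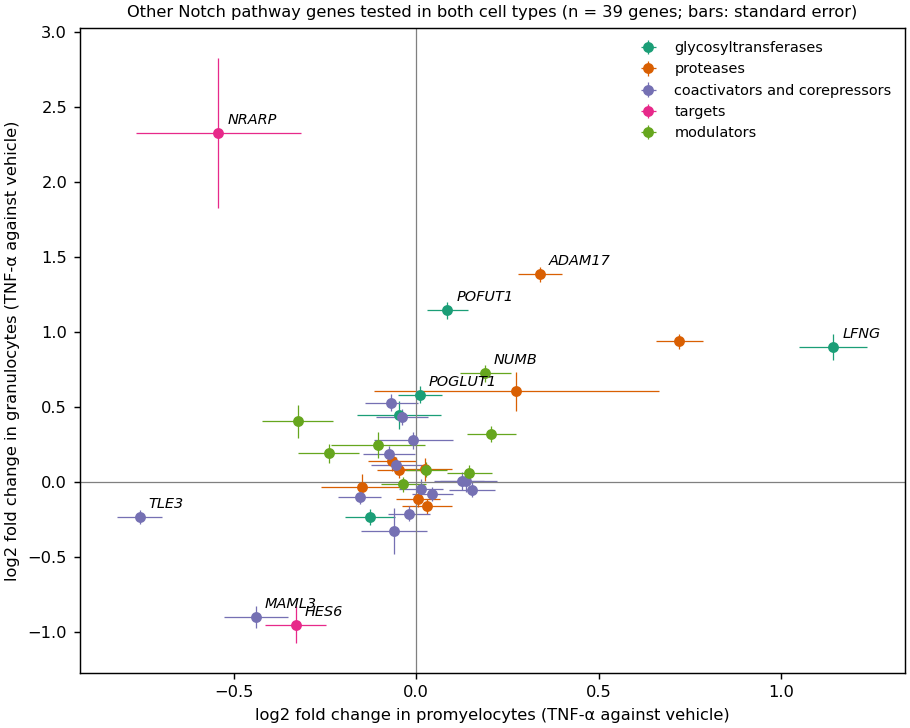
Log2 fold change of TNF-α against vehicle in promyelocytes (x axis) and granulocytes (y axis) for the 39 other Notch pathway genes tested in both, with a color for each role and bars for the standard error. *LFNG* lies to the upper right and *TLE3*, *MAML3* and *HES6* to the lower left. The log2 fold changes of *ADAM17* and *POFUT1* were 1.39 and 1.15 in granulocytes, and 0.34 and 0.085 in promyelocytes.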

How the data were processed

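RNA of the 12 libraries was sequenced as paired ends after ribosomal RNA depletion. Per the submitters' processing notes and the file header, the authors checked reads with FastQC 0.11.4, aligned them to hg38 with STAR 2.5.3a and counted read pairs per GENCODE gene with featureCounts 1.5.2, by strand and with primary alignments only; the deposited values are raw counts with a summed exon length per gene. The authors named DESeq2 1.16.1 for their own tests.

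Here the counts were tested with edgeR 4.0.16 (quasi-likelihood, trimmed-mean scaling, filterByExpr with a count minimum of 10 and a total of 15, Benjamini-Hochberg adjustment over all genes tested, threshold 0.05) in R 4.3.3, separately in each cell type as in the study, with the interaction fitted over all 12 libraries. Symbols were matched for 57532 of 58288 genes. Levels are CPM on scaled library sizes, and shares and orders use CPM per kilobase of the deposited length. Library totals between 22829189 and 31895061 limit precision at low counts, for which conditional exact intervals at 95% are given; these and the limit of 3 counts cover counting error only. Replicates were separate flasks of 1 line and no pair of libraries agreed within sampling noise, so p-values measure the spread between flasks of one experiment.

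The genes and lists were chosen with earlier results of these data known. All 10 genes are named, with, from the list of 57, the 4 called genes of largest change in each cell type at a mean log2 CPM of at least 1, of which 1 is not reported here, *TNFAIP3* as a treatment check (*NFKBIA* was the other), and the 2 genes most like *JAG1*; the markers were listed by hand. Promoter windows are from RefSeq (GRCh38.p14). Alternatives were DESeq2 1.42.0, its size factors in edgeR, no filter, a replicate block, 1 fit over all libraries, GC content and length trends removed, each library left out, raw library totals for levels and, chosen after seeing the data, *NOTCH2* and *NOTCH2NLA* counts summed. The test was checked on simulated counts.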

Additional observations from a re-analysis of the deposited data

Results flagged for a closer look

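The responses of 3 genes to TNF-α differed between the cell types by a test of the difference itself, the edgeR interaction over all 12 libraries, beside 24.0% of the 18124 genes tested. Cell type and experiment cannot be told apart in these differences. The difference, granulocytes minus promyelocytes on the log2 scale, was 1.08 for *JAG1* (edgeR adjusted p = 7.55e-07), which was lower after TNF-α in 3 of 3 promyelocyte libraries and higher in 3 of 3 granulocyte libraries than all vehicle libraries on the scaled levels; on raw library totals the granulocyte libraries overlapped. It was -0.50 for *RBPJ* (edgeR adjusted p = 5.91e-06), which was lower in 3 of 3 treated granulocyte libraries and overlapped in promyelocytes. For *NOTCH1* it was 0.37 (edgeR adjusted p = 0.0237), with overlapping libraries in both cell types, and it was 0.052 with GC content and length trends removed; the cause was not tested.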

How the results depend on the processing

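The calls of *NOTCH2* and *JAG2*, of *JAG1* in promyelocytes and of *RBPJ* in granulocytes, and the interactions of *JAG1* and *RBPJ*, kept direction and side of the threshold in every alternative run. Those of *NOTCH1* and *JAG1* in granulocytes kept them in 9 and 7 of 13 alternatives, and the *NOTCH1* interaction in 10 of 18. Removing the trends in GC content and length left 3 genes called higher in granulocytes, and *NOTCH1* in granulocytes was -0.0047, *RBPJ* in promyelocytes -0.027 and the *JAG2* interaction -0.054. *NOTCH1* in granulocytes had an edgeR adjusted p of 0.0592 in the fit of all 12 libraries, and the *NOTCH2* interaction was -0.027 without the filter and -0.00298 by DESeq2, and the causes were not tested. Leaving out 1 library at a time, genes called lower in promyelocytes were 1 to 2, genes called higher in granulocytes 3 to 5, and other pathway genes called lower in promyelocytes 2 to 4; *HES1* in promyelocytes ranged from -0.63 to 0.051, *NOTCH1* in promyelocytes from -0.29 to -0.039, and the interactions of *NOTCH2* from -0.020 to 0.13 and of *JAG2* from -0.29 to 0.54, with fewer libraries in each fit.

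Same-numbered vehicle and TNF-α libraries did not deviate together (correlations from -0.147 to -0.0439 in promyelocytes and from -0.0672 to -0.0130 in granulocytes). Differently numbered ones had correlations from -0.0978 to 0.149 and from -0.0104 to 0.0757. The labels do not say whether same-numbered flasks were handled together. With the replicate block, genes called were 2 higher and 1 lower in promyelocytes and 5 higher and 1 lower in granulocytes, and 3 interactions were called; over all genes, calls were 1833 in promyelocytes, 7721 in granulocytes and 3349 for the interaction.

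On raw library totals the level of *RBPJ* in vehicle granulocytes was 202 CPM, in place of 195 CPM. Depth limited *HES1*, *HES4*, *HEY1* and *DLL1* and the vehicle levels of *MAML2*. With the *NOTCH2NLA* counts summed the *NOTCH2* calls stayed past the threshold, but *NOTCH2NLA* rose more, so this setting could not lower the change.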

Other observations

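Genes in this paragraph were chosen after their values were seen. *NRARP*, a Notch target that feeds back on the receptor complex, had 5, 1 and 8 counts in vehicle granulocytes and 26, 24 and 11 after TNF-α, and the libraries did not overlap. In promyelocytes it had 92, 69 and 61 counts with vehicle and 34, 58 and 57 after TNF-α. It passed the filter in granulocytes through its TNF-α libraries alone, which favors a difference there, so no test is given. *NUMB*, which antagonizes Notch by sending it to endosomes, was at 47.2, 55.5 and 53.9 CPM in vehicle granulocytes and 86.7, 82.4 and 81.5 CPM after TNF-α, a log2 fold change of 0.73 ± 0.0572 (edgeR adjusted p = 1.95e-13). *NUMBL* had a log2 fold change of -0.32 in promyelocytes (edgeR adjusted p = 0.0295) and 0.41 in granulocytes (edgeR adjusted p = 0.00215), with an interaction of 0.77 (edgeR adjusted p = 0.000142). The corepressor gene *SPEN*, which works with RBPJ in the absence of Notch, had a log2 fold change of 0.43 in granulocytes (edgeR adjusted p = 1.04e-08), where *NCOR1* had -0.21 (edgeR adjusted p = 0.000530).

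The remaining receptors and ligands were near the detection limit. *NOTCH3* had between 3 and 29 counts per library and *NOTCH4* between 1 and 18. *DLL4* had at most 6 counts in any library and *DLL3* at most 2. *HES2*, *HES5*, *HEY2* and *HEYL* were at 0 in all 12 libraries except for 1 count of *HES2* in a TNF-α promyelocyte library.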
